A study of Mus musculus with 18 samples.

Results

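Skeletal muscle contractile and sarcomere genes were followed in mouse skin flaps collected at day 7. The 35 genes were chosen by symbol from the 27743 genes of the expression table, and all 35 were found. They build the contractile lattice of striated muscle, its Z-discs, its calcium machinery and its energy supply. In 5 groups a mesh-like spacer, printed by a near-field electrostatic method in differing diameters and spacings, lay under the flap. These groups are labelled D15L100, D15L150, D15L200, D100L150 and D150L150. Control flaps went without a spacer after the flap model was made. Each group had 3 libraries, which gives 18 in all, and the tissue label is skin throughout. The labels give no unit for the numbers after D and L and no strain, sex or age. Whether a group's libraries are from different animals is not stated, so p-values gauge library-to-library spread alone, which may be technical. The series asks how topology steers cell differentiation in place.

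A sarcomere is the repeating contractile unit of a striated muscle fibre, in which myosin thick filaments pull on actin thin filaments between Z-discs. Calcium released from the sarcoplasmic reticulum binds troponin and so uncovers the myosin sites on actin. Fast and slow fibres use different genes for myosin, its light chains and the troponins, and embryonic and perinatal myosins mark developing or regenerating fibres. Mouse skin carries a thin sheet of striated muscle, the panniculus carnosus, beneath the dermis and fat.

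The promoters of a pair of fast myosin genes and of 2 slow fibre genes are shown. Fast genes varied together between libraries, while slow genes split into 2 patterns. A link between these patterns and the promoter sequences was not tested. RefSeq (GRCm38.p6) lists a promoter for 28 of the 35 genes. Each run below holds 250 bases before to 50 bases after the transcription start, on the strand of the gene. Capitals mark CANNTG, the E-box bound by myogenic basic helix-loop-helix factors, and the MEF2 motif, the A/T-rich site of the MEF2 factors. The Myh1 window lies at chr11:67199852-67200151 on the plus strand and that of Myh4 at chr11:67237562-67237861 on the plus strand. The Myh7 window lies at chr14:54994577-54994876 on the minus strand and that of Tnnc1 at chr14:31208062-31208361 on the plus strand.
Myh1: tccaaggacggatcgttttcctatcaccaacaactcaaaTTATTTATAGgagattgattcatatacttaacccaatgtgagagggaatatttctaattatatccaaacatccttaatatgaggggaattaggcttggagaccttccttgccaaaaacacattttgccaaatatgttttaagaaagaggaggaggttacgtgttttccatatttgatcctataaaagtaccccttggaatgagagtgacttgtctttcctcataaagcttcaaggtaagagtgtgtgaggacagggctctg
Myh4: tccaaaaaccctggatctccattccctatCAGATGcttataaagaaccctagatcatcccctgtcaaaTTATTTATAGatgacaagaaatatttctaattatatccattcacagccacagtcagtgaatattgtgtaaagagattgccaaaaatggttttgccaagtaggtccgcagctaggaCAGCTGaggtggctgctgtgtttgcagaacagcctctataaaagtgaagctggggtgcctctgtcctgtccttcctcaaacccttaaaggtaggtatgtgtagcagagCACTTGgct
Myh7: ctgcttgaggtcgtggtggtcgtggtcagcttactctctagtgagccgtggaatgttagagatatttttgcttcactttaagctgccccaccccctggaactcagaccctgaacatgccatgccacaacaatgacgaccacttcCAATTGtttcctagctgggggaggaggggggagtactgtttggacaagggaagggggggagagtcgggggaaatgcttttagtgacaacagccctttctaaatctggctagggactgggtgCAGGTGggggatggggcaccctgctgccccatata
Tnnc1: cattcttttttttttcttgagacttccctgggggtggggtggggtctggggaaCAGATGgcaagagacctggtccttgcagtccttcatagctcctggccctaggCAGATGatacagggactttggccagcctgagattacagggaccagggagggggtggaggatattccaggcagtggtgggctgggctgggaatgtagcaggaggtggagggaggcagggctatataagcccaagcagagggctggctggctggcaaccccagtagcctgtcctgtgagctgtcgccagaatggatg
The MEF2 match begins at -211 from the start in Myh1 and at -182 in Myh4, with the same letters in both. On both strands together, CANNTG was found in 82.1% of the 28 promoters and in 72.3% of 32851 mouse promoters of the same length. The MEF2 motif was found in 17.9% of the 28, namely Myh1, Myh4, Ttn, Xirp2 and Pvalb, and in 3.19% of all promoters. The CArG box, the site of serum response factor, was found in 14.3% of the 28 and in 1.63% of all. TATAAA was found in 21.4% of the 28 and in 13.6% of all, and 1 of its matches overlaps the MEF2 match in Myh1 and in Myh4. These are matches of letters in these windows and no evidence of binding.

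Striated muscle transcripts were abundant in every library and differed several-fold between libraries of 1 group. Expression is given as FPKM, counted fragments scaled to gene length and to the library's total. The 35 genes together took 2.45% to 5.55% of all FPKM in D15L100, 1.07% to 4.87% in D15L150 and 0.867% to 2.84% in D15L200. They took 0.667% to 4.30% in D100L150, 0.637% to 1.22% in D150L150 and 2.37% to 5.49% in Control. Acta1, skeletal muscle alpha-actin, averaged 2754 FPKM over 18 libraries and ranked number 10 of all genes by mean, and Mylpf, the fast regulatory light chain, averaged 1324 FPKM. Titin (Ttn), the giant spring protein, had the lowest mean of the 35 genes, 6.83 FPKM. An FPKM of 1 was reached in all 18 libraries by 31 of the 35 genes. The exceptions were Myh2, Myh7, Myl2 and Myl3, all of the thick filament.

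**Figure D1:**
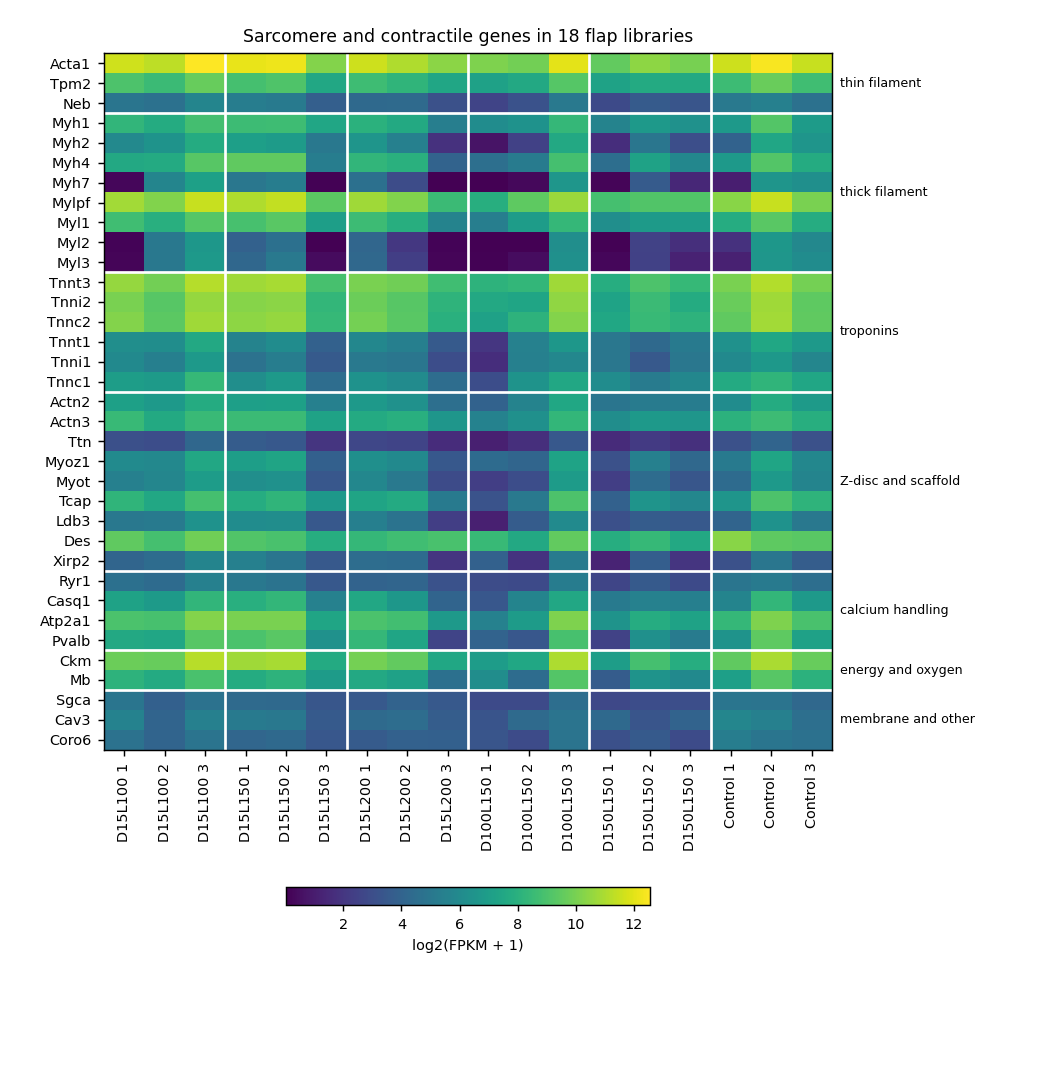
Level of each of the 35 genes (down the page, by role) in each of the 18 libraries (across, by group), as log2(FPKM + 1) on the colour scale. D15L150 3, D15L200 3 and D100L150 1 and 2 are darker than the rest of their groups through most roles, and the slow genes Myh7, Myl2 and Myl3 are near 0 in 6 libraries.

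Libraries held 28422344 to 35327357 fragments, recovered from the steps in the FPKM values, and the deepest was 1.24 times the shallowest. Of 8 cardiac markers, Myh6, Nppa and Ryr2 lay under 1 FPKM in all 18 libraries. The 8 markers together summed to 41.2 to 404 FPKM, so others of that list were expressed. Exons of 15 of the 35 genes are overlapped by a gene on the opposite strand, such as Mhrt at Myh7, and whether counting used strand is not given in the sources used here. Between Myh1 and Myh2, 19.7% of 50-base stretches are shared, and between Myh1 and Myh4 10.5%. Levels of Myh1, Myh2, Myh4 and Myh8 are therefore uncertain against each other, while Myh7 shares 0.162% with Myh1.

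Among thin filament genes, Acta1 gives the backbone of the filament, Tpm2 a tropomyosin that lies along it, and Neb nebulin, which spans its length. Acta1 was at 3199.5, 2559 and 5972 FPKM in D15L100, 4456, 4864 and 1187 FPKM in D15L150, and 3037, 2119 and 1327 FPKM in D15L200. D100L150 had 1105, 946 and 4225 FPKM, D150L150 had 731, 1374 and 993 FPKM, and Control had 3104, 5449.6 and 2923 FPKM. All 3 D150L150 libraries lay below all 3 Control libraries, while each other group had libraries below Control and libraries that were not. The D150L150 minus Control difference of Acta1 on the log2(FPKM + 1) scale was -1.88 ± 0.61, with adjusted p = 0.115 after Benjamini-Hochberg adjustment in limma. Over all 13078 tested genes, 2.42% were called in this comparison at an adjusted p under 0.05, and 12.1% had all 3 D150L150 libraries below all 3 Control libraries. Acta1 did not pass, and the same held for Tpm2 at -1.47 ± 0.54 and Neb at -1.83 ± 0.57. Over the 18 libraries Tpm2 ranged from 143 to 832 FPKM and Neb from 5.07 to 51.3 FPKM. In bulk tissue, fewer muscle fibres and less RNA per fibre cannot be told apart.

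Of the 4 adult myosin heavy chain genes, the fast genes Myh4 and Myh1 had the highest mean levels, 263 and 220.2 FPKM over 18 libraries. Myh4, the gene of type 2B myosin, was at 191, 204 and 625 FPKM in D15L100, 717, 711 and 39.2 FPKM in D15L150, and 309, 254 and 15.3 FPKM in D15L200. Values were 23.5, 36.8 and 465 FPKM in D100L150, 22.8, 151 and 55.1 FPKM in D150L150, and 109.9, 594 and 209.5 FPKM in Control. Its highest values came from D15L150 1 and 2 and D15L100 3, and D150L150 overlapped Control through D150L150 2. Myh1, of type 2X, was at 309.6, 209 and 441 FPKM in D15L100, 391, 409.9 and 173 FPKM in D15L150, and 262, 199.8 and 40.6 FPKM in D15L200. In D100L150 it was at 68.2, 83.3 and 334 FPKM, in D150L150 at 49.0, 107 and 80.7 FPKM, and in Control at 105, 582 and 117 FPKM. Control held both the highest value of Myh1 and values near those of D150L150, so the groups overlapped. Myh2, of type 2A, was at 60.6, 88.3 and 209 FPKM in D15L100, 135, 119 and 31.8 FPKM in D15L150, and 92.4, 44.4 and 2.56 FPKM in D15L200. It was at 0.631, 4.55 and 191 FPKM in D100L150, 2.23, 30.0 and 7.31 FPKM in D150L150, and 14.7, 174 and 92.2 FPKM in Control. Myh2 spread 331-fold between its lowest library, D100L150 1, and its highest, D15L100 3. The D150L150 minus Control differences were -2.03 ± 1.41 for Myh4, -1.35 ± 0.79 for Myh1 and -2.76 ± 1.60 for Myh2. None passed in limma, with adjusted p of 0.438, 0.355 and 0.347 in that order.

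Fast light chains showed a like pattern. Mylpf was at 1822, 1138 and 2880.5 FPKM in D15L100, 2104, 2670.5 and 679 FPKM in D15L150, and 1707, 1136 and 373 FPKM in D15L200. D100L150 had 231, 697 and 1629.8 FPKM, D150L150 had 455, 565 and 565 FPKM, and Control had 1275, 2848 and 1049 FPKM. Myl1, the fast essential light chain, was at 415, 241 and 616 FPKM in D15L100, 476, 645 and 133 FPKM in D15L150, and 384, 235 and 48.8 FPKM in D15L200. Values were 41.2, 124 and 326 FPKM in D100L150, 72.8, 113 and 119 FPKM in D150L150, and 216, 658 and 219.8 FPKM in Control. Both genes lay lower in all 3 D150L150 libraries than in any Control library, with differences of -1.57 ± 0.72 for Mylpf and -1.66 ± 0.84 for Myl1. Neither passed, with limma adjusted p of 0.239 for Mylpf and 0.284 for Myl1.

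The slow heavy chain and its light chains were near 0 in some libraries of every spacer group and higher in others, though at most at 11.5 FPKM in D150L150. Myh7, the slow or beta myosin gene, was at 0.181, 51.8 and 141 FPKM in D15L100, 30.9, 39.6 and 0.0889 FPKM in D15L150, and 24.4, 6.60 and 0.0524 FPKM in D15L200. In D100L150 it was at 0.0282, 0.249 and 95.7 FPKM, in D150L150 at 0.164, 11.5 and 1.73 FPKM, and in Control at 1.13, 92.0 and 75.9 FPKM. The same 6 libraries, D15L100 1, D15L150 3, D15L200 3, D100L150 1, D100L150 2 and D150L150 1, were at most at 0.387 FPKM for Myh7, Myl2 and Myl3. None of them was a Control library, but low values were not confined to spacer groups. Control 1 was the next lowest library for Myh7 and Myl3, at 1.13 and 1.29 FPKM. For Myl2 it was at 2.51 FPKM, far below Control 2 and 3. Myh7 had 6 to 47 fragments in those libraries, against 235 to 28258 in the other 12. Myl2, the slow regulatory light chain, was at 0.124, 31.5 and 102 FPKM in D15L100, 14.2, 24.1 and 0.0537 FPKM in D15L150, and 17.1, 3.16 and 0.112 FPKM in D15L200. It was at 0.0241, 0.0545 and 73.1 FPKM in D100L150, 0.0743, 4.66 and 2.30 FPKM in D150L150, and 2.51, 98.9 and 57.5 FPKM in Control. Libraries low in Myh7 were low here too. Myl3, the slow essential light chain, was at 0.161, 31.6 and 109 FPKM in D15L100, 17.5, 32.9 and 0.305 FPKM in D15L150, and 18.2, 4.09 and 0.159 FPKM in D15L200. D100L150 had 0.0686, 0.387 and 79.9 FPKM, D150L150 had 0.211, 4.46 and 1.37 FPKM, and Control had 1.29, 97.0 and 68.3 FPKM. All 5 spacer groups overlapped Control for each of these 3 genes. The D150L150 minus Control difference was -2.86 ± 2.25 for Myh7, -3.33 ± 2.00 for Myl2 and -3.32 ± 2.05 for Myl3, with limma adjusted p between 0.367 and 0.504.

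Troponin T anchors the calcium switch to tropomyosin, troponin I holds it off and troponin C binds calcium, and each has a fast and a slow gene. Among the fast genes, Tnnt3 was at 1531, 942 and 2273 FPKM in D15L100, 1742, 1919 and 479 FPKM in D15L150, and 1056, 908 and 411 FPKM in D15L200. Values were 276, 314 and 1739 FPKM in D100L150, 225, 529 and 339 FPKM in D150L150, and 1055, 2178 and 984 FPKM in Control. All 3 D150L150 libraries lay below all Control libraries, and D100L150 1 and 2 were at similar values. Tnni2 was at 1035, 632 and 1522 FPKM in D15L100, 1254, 1316 and 321 FPKM in D15L150, and 851, 629 and 292 FPKM in D15L200. In D100L150 it was at 191, 165 and 1408 FPKM, in D150L150 at 157, 372 and 215 FPKM, and in Control at 822, 1716 and 687 FPKM. D100L150 split into 2 low libraries and 1 high library for Tnni2 as for Tnnt3. Tnnc2 was at 1209.7, 672 and 1734 FPKM in D15L100, 1357, 1492 and 340.1 FPKM in D15L150, and 963, 658 and 249.7 FPKM in D15L200. It was at 143, 274 and 1189.7 FPKM in D100L150, 177, 358 and 279 FPKM in D150L150, and 709, 1779 and 723 FPKM in Control. D150L150 did not overlap Control for any of the 3 fast troponins. Their D150L150 minus Control differences were -1.93 ± 0.70, -2.08 ± 0.77 and -1.89 ± 0.77 in the order given, with limma adjusted p of 0.150, 0.154 and 0.187.

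Slow troponins stayed detectable in the libraries that had almost no slow myosin. Tnnt1 was at 72.9, 70.7 and 189.5 FPKM in D15L100, 48.6, 69.1 and 14.2 FPKM in D15L150, and 56.3, 41.5 and 11.1 FPKM in D15L200. D100L150 had 3.08, 44.5 and 101 FPKM, D150L150 had 31.2, 18.6 and 34.8 FPKM, and Control had 82.0, 179 and 109 FPKM. All libraries of D15L150, D15L200 and D150L150 lay below all Control libraries, which was true of 14%, 13.8% and 12.1% of tested genes. Tnni1 was at 62.0, 41.8 and 109 FPKM in D15L100, 25.7, 39.2 and 11.1 FPKM in D15L150, and 33.2, 30.0 and 6.93 FPKM in D15L200. Values were 2.22, 44.4 and 56.2 FPKM in D100L150, 30.4, 10.7 and 30.4 FPKM in D150L150, and 62.6, 104 and 54.0 FPKM in Control. The same 3 groups lay wholly below Control. Tnnc1, whose product is also the cardiac troponin C, was at 125, 116 and 342 FPKM in D15L100, 73.2, 112 and 21.9 FPKM in D15L150, and 84.1, 67.2 and 21.7 FPKM in D15L200. In D100L150 it was at 7.03, 87.1 and 187 FPKM, in D150L150 at 69.1, 36.1 and 55.0 FPKM, and in Control at 203, 298 and 170.0 FPKM. Here too D15L150, D15L200 and D150L150 did not overlap Control, while D15L100 and D100L150 did. None passed in limma. With 1 library left out, D150L150 minus Control was -2.31 to -1.75 for Tnnt1, -1.90 to -1.19 for Tnni1 and -2.26 to -1.80 for Tnnc1. In D15L200 against Control the differences were -1.93 ± 0.96 for Tnnt1, -1.82 ± 0.92 for Tnni1 and -2.10 ± 0.94 for Tnnc1, with adjusted p of 0.319, 0.324 and 0.273.

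Z-disc and scaffold genes hold the filaments in register. Des, desmin, the intermediate filament that links neighbouring Z-discs, was at 710.1, 459 and 917 FPKM in D15L100, 566, 492 and 226 FPKM in D15L150, and 334, 413 and 497 FPKM in D15L200. It was at 354, 193 and 746 FPKM in D100L150, 224, 336 and 194 FPKM in D150L150, and 1292, 686 and 656 FPKM in Control. Control 1 had the highest value of all 18 libraries, and D15L150, D15L200 and D150L150 lay wholly below Control. In D150L150 against Control Des had the smallest p of the genes that did not pass, at -1.77 ± 0.47 and a limma adjusted p = 0.0603. The other 8 genes of this role had D150L150 minus Control differences from -2.50 for Tcap, the titin cap telethonin, to -1.60 for Xirp2, a Xin-repeat actin-binding gene. Between these lay the alpha-actinins Actn2 and Actn3, Ttn, the calsarcin Myoz1, the myotilin gene Myot and Ldb3, and none passed. Over the 18 libraries Actn2 ranged from 14.5 to 214 FPKM, Actn3 from 46.7 to 391, Ttn from 1.18 to 17.3 and Myoz1 from 7.79 to 184. Ranges were 4.12 to 125 FPKM for Myot, 8.29 to 531 for Tcap, 1.18 to 84.8 for Ldb3 and 1.46 to 49.8 for Xirp2. The widest of these, Ldb3, thus spread 72.0-fold.

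Calcium handling and energy genes varied like the filaments. Atp2a1, the calcium pump of the fast sarcoplasmic reticulum, was at 504, 483 and 1184 FPKM in D15L100, 1050.1, 1026 and 169 FPKM in D15L150, and 516, 431 and 112 FPKM in D15L200. D100L150 had 44.6, 120.0 and 1116 FPKM, D150L150 had 86.1, 219 and 149.6 FPKM, and Control had 331, 1130.5 and 494 FPKM. D150L150 lay wholly below Control, with a difference of -2.002 ± 1.03 and a limma adjusted p = 0.287. Ryr1, the calcium release channel, Casq1, which stores calcium, and Pvalb, the fast-fibre calcium buffer parvalbumin, had differences of -1.85 ± 0.59, -1.58 ± 1.07 and -3.02 ± 1.65, and none passed. Their ranges over the 18 libraries were 5.22 to 44.1 FPKM for Ryr1, 9.70 to 317 for Casq1 and 4.66 to 701 for Pvalb. Ckm, muscle creatine kinase, was at 859.8, 799 and 2346 FPKM in D15L100, 1758, 1932 and 201 FPKM in D15L150, and 978, 741 and 178 FPKM in D15L200. Values were 123, 177 and 2028 FPKM in D100L150, 126, 465 and 229 FPKM in D150L150, and 717, 1968 and 797 FPKM in Control. Its D150L150 libraries lay below all Control libraries, as did those of Mb, the oxygen-binding myoglobin, at 11.98 to 88.3 FPKM in D150L150 and 138 to 626 FPKM in Control. The difference was -2.12 ± 1.08 for Ckm and -2.79 ± 1.09 for Mb, and neither passed in limma, with adjusted p of 0.282 and 0.171.

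Of the 35 genes 2 passed, both in D150L150 against Control, where 2.42% of tested genes were called, and both fell. They lie at chr11:77462321-77470484 (Coro6) and chr11:94962777-94976327 (Sgca) of GRCm38.p6. Coro6, an actin-binding coronin, was at 25.9, 15.8 and 28.3 FPKM in D15L100, 16.9, 18.6 and 9.71 FPKM in D15L150, and 11.3, 14.01 and 13.7 FPKM in D15L200. In D100L150 it was at 8.96, 6.35 and 27.9 FPKM, in D150L150 at 7.44, 11.1 and 6.46 FPKM, and in Control at 39.8, 28.7 and 24.7 FPKM. All 3 libraries of D15L150, D15L200 and D150L150 lay below every Control library, and D100L150 3 lay within the Control range. Coro6 fell by 1.78 ± 0.41 in D150L150 against Control, with a limma adjusted p = 0.0404. Sgca, alpha-sarcoglycan of the dystrophin complex, was at 28.7, 13.9 and 26.2 FPKM in D15L100, 19.8, 18.8 and 9.26 FPKM in D15L150, and 10.5, 15.2 and 10.6 FPKM in D15L200. It was at 6.09, 6.15 and 22.5 FPKM in D100L150, 5.65, 6.99 and 7.19 FPKM in D150L150, and 29.2, 28.2 and 18.2 FPKM in Control. D15L200 and D150L150 did not overlap Control. Sgca fell by 1.76 ± 0.42 in D150L150, with a limma adjusted p = 0.0444. Cav3, the muscle caveolin, was at 46.7, 15.6 and 43.0 FPKM in D15L100, 35.6, 32.2 and 11.1 FPKM in D15L150, and 19.9, 22.1 and 12.3 FPKM in D15L200. D100L150 had 8.73, 19.2 and 28.3 FPKM, D150L150 had 18.7, 9.24 and 15.1 FPKM, and Control had 53.3, 44.4 and 23.1 FPKM. Cav3 also lay wholly below Control in D15L200 and D150L150, but its D150L150 difference of -1.39 ± 0.53 did not pass, at a limma adjusted p = 0.163. Coro6 and Sgca had the smallest within-group SD of the 35 genes, 0.54 and 0.55 log2 units.

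Counted over all genes with Benjamini-Hochberg adjustment in limma, 2 of 35 genes fell and 33 did not pass in D150L150 against Control, where 2.42% of 13078 tested genes were called. All 35 differences were negative, with a median of -1.85 against 0.00 over all tested genes. In limma 17 (48.6%) had an unadjusted p under 0.05, against 20.4% of all tested genes. The 35 genes varied in step between libraries, so counts of them, here and below, are not counts of independent genes. Both calls were lost in 11 of the 18 fits that left out 1 library: any library of D150L150, of Control or of D15L200, D15L150 1 or D15L150 2, and without D15L100 1 the call of Coro6 alone was left. Without D100L150 3, 5 genes fell, adding Des, Neb and Ryr1. With the replicate block, with no filter on low values or by voom on recovered fragments, 0 genes were called.

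No gene of the 35 was called in the other comparisons with Control. In D100L150, 1.38% of tested genes were called, and in D15L200 1.56%. All 35 differences were negative in both, with medians of -1.47 in D100L150 and -1.04 in D15L200, and an unadjusted p under 0.05 was reached by 8 of 35 (22.9%) in D100L150, against 21.1% of tested genes, and by 4 (11.4%) in D15L200, against 17.3%. The D100L150 share is near that of all genes and the D15L200 share below it. Without D100L150 3, the high library of its group, 5 genes fell in D100L150, namely Actn3, Coro6, Neb, Ryr1 and Sgca. In D15L150 and in D15L100, 0% of tested genes were called. The median was -0.31 in D15L150, with 26 negative and 9 positive values, and 0.09 in D15L100, with 13 negative and 22 positive values. Unadjusted p lay under 0.05 for 2 of 35 genes (5.71%) in D15L150 and 0 in D15L100, both below the 19.8% and 3.3% of tested genes in those comparisons. For the mean of the 5 spacer groups, 3.56% of tested genes were called and 0 of the 35, with a median of -0.92, and 7 of 35 had an unadjusted p under 0.05, near the 22.4% of tested genes. Without D100L150 3, Coro6 and Sgca fell in that comparison as well. By voom 0 genes were called in each comparison with Control, and all of these comparisons share the 3 Control libraries.

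**Figure D2:**
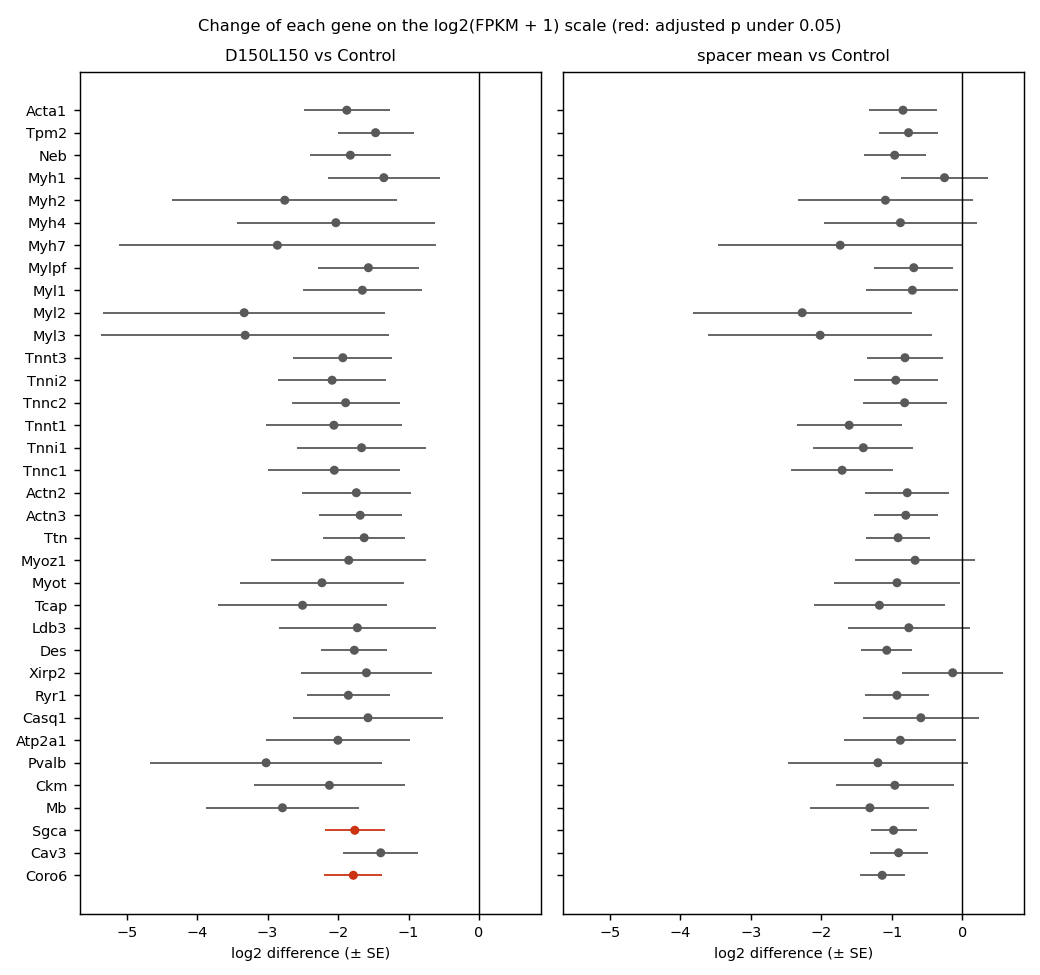
Log2 difference of each of the 35 genes (down the page) for D150L150 minus Control, left, and the mean of the 5 spacer groups minus Control, right, on the log2(FPKM + 1) scale with the SE of the fit. All 35 points lie left of 0 in both panels, and Coro6 and Sgca, drawn in red at left, had an adjusted p under 0.05.

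Read as non-overlap, a spacer group whose 3 libraries all lay below all 3 Control libraries, the counts differed by group. In D150L150, 26 of 35 genes (74.3%) met it, against 12.1% of all tested genes. Since the 35 genes varied in step between libraries, these are not 26 separate observations. The exceptions were Myh1, Myh2, Myh4, Myh7, Myl2, Myl3, Myoz1, Myot and Xirp2, of which 6 are thick filament genes. In D15L200, 10 of 35 (28.6%) met it, against 13.8% of tested genes. In D15L150, 5 of 35 (14.3%) met it, namely Tnnt1, Tnni1, Tnnc1, Des and Coro6, against 14% of tested genes, which is close to the background. In D100L150 and D15L100, 0 of 35 met it, against 10.8% and 3.97% of tested genes. No gene lay wholly above Control in any group.

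Spacer groups were also set against each other, and 0 of the 35 genes passed in any of the 6 pairs, where 0% of tested genes were called. D150L150 minus D15L150 had a median of -1.76 over the 35 genes, and 12 (34.3%) had an unadjusted p under 0.05, against 4.95% of tested genes, the smallest adjusted p being 0.890. D100L150 minus D15L150 had a median of -1.13 with 1 unadjusted p under 0.05 (2.86%), below the 11.4% of tested genes. The medians were -0.48 for D150L150 minus D100L150, -0.39 for D15L150 minus D15L100, -1.23 for D15L200 minus D15L100 and -0.76 for D15L200 minus D15L150. In these pairs 0 of the 35 had an unadjusted p under 0.05, against 2.2%, 4.72%, 5.18% and 0.734% of tested genes in the same order. By voom 0 genes were called in these pairs too. In D150L150 minus D15L150 the slow troponins Tnnt1, Tnni1 and Tnnc1 were at -0.41 ± 0.96, -0.06 ± 0.92 and -0.13 ± 0.94. The slow genes Myh7, Myl2 and Myl3 were lower, at -1.72 ± 2.25, -1.44 ± 2.00 and -1.903 ± 2.05. The 13 fast genes lay between -3.54 and -1.57, with Myh1 and Tnnt3 at -1.996 ± 0.79 and -1.77 ± 0.70.

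Slow fibre genes had a lower mean log2 difference from Control than fast fibre genes in every spacer group, over 6 slow and 13 fast genes. The slow mean minus the fast mean was -0.71 in D15L100, -1.72 in D15L150, -1.20 in D15L200, -0.75 in D100L150 and -0.59 in D150L150. In D15L150 the slow genes averaged -1.61 and the fast genes 0.11 relative to Control. In D150L150 both kinds were low, at -2.55 for slow and -1.95 for fast genes. There the slow troponins fell about as far as the fast genes. Their mean log2(FPKM + 1) level was 6.94 in Control and 5.01 in D150L150, against 8.37 and 6.41 for fast genes. For Myh7, Myl2 and Myl3 it was 4.68 and 1.51. In the other spacer groups both kinds of slow genes had a lower mean difference from Control than the fast genes. These are descriptions without a test, and they share the 3 Control libraries. The D15L100 value rests on D15L100 1, without which it was 0.25, and it was -1.15 without D15L100 2, -1.24 without D15L100 3, -1.21 without Control 1 and -0.27 without Control 3. The D100L150 value was -0.27 without D100L150 1, -1.16 without D100L150 3, -1.26 without Control 1 and -0.31 without Control 3. The D150L150 value was -1.10 without Control 1 and -0.15 without Control 3, and the D15L200 value was -0.75 without Control 3. The D15L150 value ranged from -2.22 to -1.27 when 1 library was left out. In the added fit by voom the D100L150 value was -1.93. Of 6 slow and 13 fast genes none passed in any comparison with Control. Over 18 libraries the highest value was 48.7 to 61.6 times the lowest in the slow troponins. It was 1586 to 4994 times in Myh7, Myl2 and Myl3, whose lowest values rest on 2 to 6 fragments. The 13 fast genes had 8.37 to 331 times, with a median of 15.98, against 2.06 times in the median tested gene.

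Expressed as a share of the slow plus fast troponin FPKM, slow troponins made up 6.44%, 9.24% and 10.4% in D15L100. The share was 3.28%, 4.45% and 3.97% in D15L150 and 5.71%, 5.95% and 4.01% in D15L200. It was 1.98%, 18.9% and 7.35% in D100L150 and 18.9%, 4.94% and 12.6% in D150L150. Control had 11.8%, 9.30% and 12.2%. All D15L150 and D15L200 libraries thus lay below all Control libraries, while D100L150 and D150L150 lay on both sides. The slow light chains gave another order. They made up 0.0127%, 4.38% and 5.67% of the light chains in D15L100, 1.21%, 1.69% and 0.0442% in D15L150 and 1.66%, 0.526% and 0.0642% in D15L200. In D100L150 they made up 0.0340%, 0.0538% and 7.25%, in D150L150 0.0541%, 1.33% and 0.534%, and in Control 0.255%, 5.29% and 9.02%. D100L150 2 had the highest slow troponin share of all libraries with 1 of the lowest slow light chain shares.

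**Figure D3:**
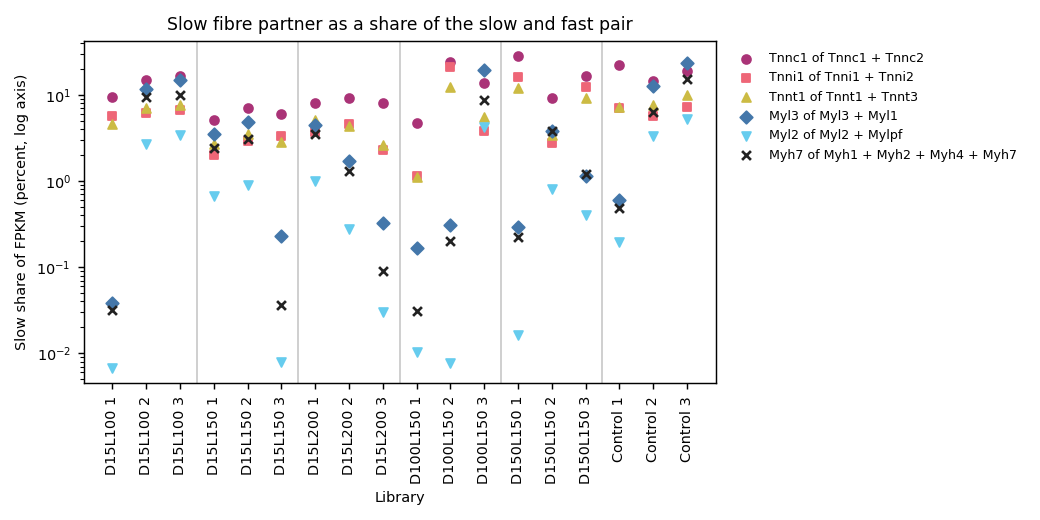
Slow partner as a percent of the summed FPKM of its slow and fast pair, for 3 troponins, 2 light chains and Myh7, in each of 18 libraries (log axis). The troponin shares of each library stay above 1%, while Myl2, Myl3 and Myh7 have their lowest shares in the same 6 libraries.

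Developmental myosins took a large part of the heavy chain message in a few libraries. Myh3, embryonic myosin, and Myh8, perinatal myosin, together took 58.1%, 3.45% and 38.0% of the FPKM of 6 heavy chain genes in D150L150. They took 2.76%, 53.4% and 1.42% in D100L150, and 26.0%, 11.0% and 6.08% in Control. In the 9 libraries of D15L100, D15L150 and D15L200 their share was 3.66% to 22.0%. The 3 libraries with the highest share, D150L150 1, D100L150 2 and D150L150 3, were also the 3 with the highest slow troponin share. Myh7 made up 0.221%, 0.1996% and 1.20% of the 4 adult heavy chains in those libraries. By level, Myh3 was at 67.2, 7.73 and 44.9 FPKM in D150L150 and 53.6, 84.5 and 19.4 FPKM in Control, so the high share of D150L150 1 came with a Myh3 level inside the Control range.

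**Figure D4:**
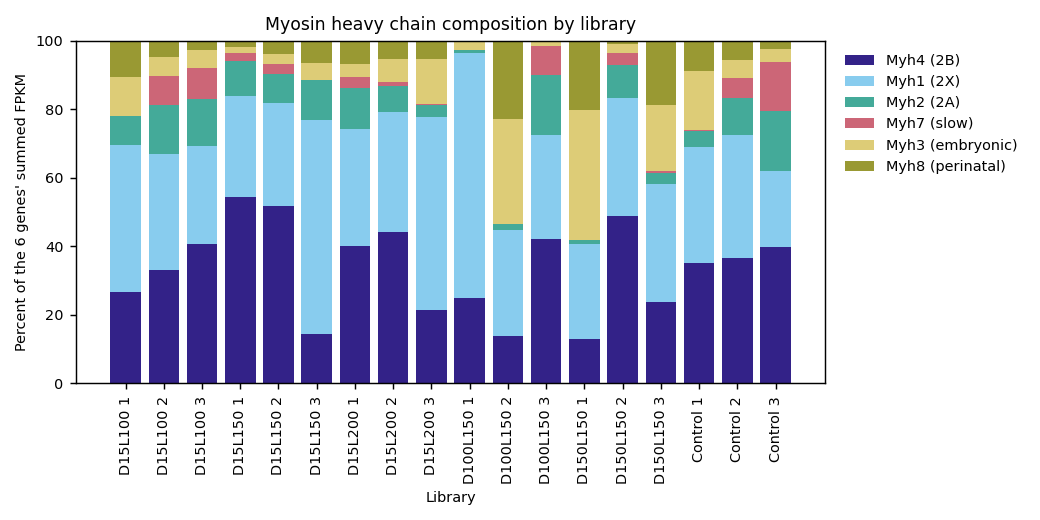
Share of 6 myosin heavy chain genes in their summed FPKM for each of 18 libraries, stacked to 100%. Myh3 and Myh8 fill 58.1% of the bar in D150L150 1, 53.4% in D100L150 2 and 38.0% in D150L150 3, and Myh4 with Myh1 fills most of the other bars.

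Spread within groups was wide for these genes. The SD within groups, pooled over 6 groups, had a median of 1.22 log2 units over the 35 genes, against 0.214 over all tested genes. It was above the 90th percentile of all tested genes for 33 of the 35, all but Coro6 and Sgca. Slow myosin genes spread most, with an SD of 2.98 for Myh7, 2.72 for Myl3 and 2.66 for Myl2. The median SD of the 35 genes was 8.40 times that of all tested genes in D100L150, 7.49 times in D15L200 and 6.75 times in D15L150. It was 3.79 times in D15L100, 3.03 times in D150L150 and 3.75 times in Control.

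The same library carried the high or the low value for nearly all of the 35 genes. D100L150 3 was the highest of its group for 35 of 35 genes, and D15L150 3 the lowest of its group for 35 of 35. D15L100 3 was the highest of its group for 33 genes, Control 2 for 31, and D15L200 1 and D150L150 2 for 27 each. D15L200 3 was the lowest of its group for 32 genes. Summed over the 35 genes, FPKM were 14359, 10382 and 25641 in D15L100, 18868, 21009 and 4850.3 in D15L150, and 12575, 9388 and 4035 in D15L200. Sums were 2999, 3827 and 19399 in D100L150, 2841, 5501 and 3967 in D150L150, and 11470.0, 24824 and 11333 in Control. The highest sum was 6.47 times the lowest within D100L150, and without D100L150 3 the widest group was D15L150 at 4.33 times.

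**Figure D5:**
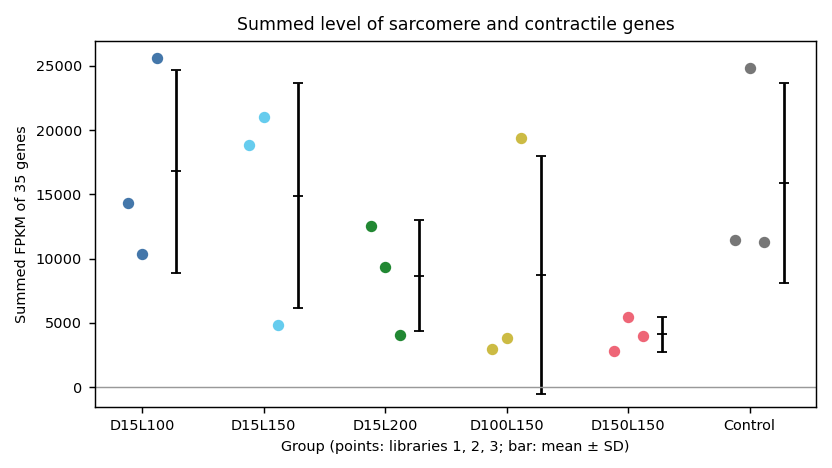
Summed FPKM of the 35 genes for each library (points), with mean ± SD beside them, by group. The 3 D150L150 libraries lie between 2841 and 5501 and below the 3 Control libraries, and D100L150 splits into 2 libraries at 2999 and 3827 and 1 at 19399.

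Across the 18 libraries the genes varied in step. Each gene's correlation with the mean of the other 34 was between 0.67 (Des) and 0.989 (Myot), given as a description, since each library draws all genes from 1 RNA sample and 1 total. The lowest values after Des were Cav3 at 0.729, Tnni1 at 0.731, Coro6 at 0.760 and Tnnc1 at 0.797. Outside the 35, the tested genes most like their mean were Mybpc1, slow myosin-binding protein C, at 0.987, Tcea3, an elongation factor gene, at 0.985, and Tmem38a, a cation channel of the sarcoplasmic reticulum, at 0.984. Synpo2, 3425401B19Rik, Tmod4, Myom1, Myadml2, Trdn and Yipf7 followed, at 0.979 to 0.982. With group means removed, Mybpc1 was again first at 0.991, and Phkg1, Pygm, Myoz2 and 2310002L09Rik joined the first 10.

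Other genes of the same machinery had negative medians in D150L150 against Control and no calls. Of 25 other sarcomere genes 0 passed in D150L150 against Control, with a median of -1.41, and the smallest p were for Pdlim3 at -1.65 ± 0.46 and Lmod2 at -1.77 ± 0.51. Of 15 excitation-contraction genes 0 passed, with a median of -1.43, and Cacng1 was at -1.43 ± 0.37 and Jsrp1 at -1.86 ± 0.50. Of 15 muscle energy genes 0 passed, with a median of -1.70, led by Cox8b at -2.42 ± 0.77 and Cox6a2 at -2.26 ± 0.78. The median was -0.75 over 10 other dystrophin complex genes, led by Dtna at -1.03 ± 0.30 and Sgcb at -0.78 ± 0.23, and -0.80 over 5 tested other slow fibre genes, led by Myoz2 at -1.99 ± 0.65, and 0 passed in either. Over 10 tested embryonic and neonatal genes the median was -1.02 and 0 passed, and Myod1, a myogenic factor, was at -1.04 ± 0.27 and Myog, myogenin, at -1.20 ± 0.36. Of the counts with 0 passed, unadjusted p under 0.05 was reached by 15 sarcomere, 9 excitation-contraction, 5 energy, 7 dystrophin complex, 2 slow fibre and 4 embryonic genes, which is 60.0%, 60.0%, 33.3%, 70.0%, 40.0% and 40.0% of them, against 20.4% of all tested genes.

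Genes of the neuromuscular junction, where the motor nerve meets the fibre, held calls. Of 7 tested, 3 fell in D150L150 against Control, where 2.42% of tested genes were called, and 4 did not pass, with a median of -0.99. An unadjusted p under 0.05 was reached by 7 of 7 in D150L150 and D15L150 and 6 of 7 in D15L200 and D100L150. Of all tested genes 17.3% to 21.1% did so in these comparisons. In D15L100 it was 0 of 7, against 3.3%. Colq, which anchors acetylcholinesterase, fell by 0.99 ± 0.16 with a limma adjusted p = 0.014. It lay under 1 FPKM in all libraries of D15L150, D15L200, D100L150 and D150L150. Colq thus passed the filter only through Control and D15L100 libraries, and its call is no independent support for a fall. Musk, the agrin receptor kinase, fell by 0.90 ± 0.20, adjusted p = 0.0351, and Chrnb1, an acetylcholine receptor subunit, fell by 1.33 ± 0.30, adjusted p = 0.0367. In the tendon list Scx, a tendon transcription factor gene, fell by 1.54 ± 0.38, adjusted p = 0.0483, while the other 4 tested did not pass and had positive values, so that the median of the list was 0.20.

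Transcripts of other kinds differed between the same groups. The 13 mitochondrial genome genes took 3.35% to 4.41% of all FPKM in D150L150 and 7.40% to 12.5% in Control. In limma 11 of 13 fell, where 2.42% of tested genes were called. An unadjusted p under 0.05 was reached by 13 of 13 in D150L150 and 12 of 13 in each of D15L150, D15L200 and D100L150. Of all tested genes 17.3% to 21.1% did so in these comparisons. In D15L100 it was 0 of 13, against 3.3%. The 7 keratinocyte markers summed to 6560 to 8181 FPKM in D150L150 and 1261 to 3630 in Control. Krt14, a basal keratin, rose by 1.63 ± 0.32, adjusted p = 0.025 in limma, and the other 6 did not pass. All 7 had an unadjusted p under 0.05 in D150L150 against Control, against 20.4% of tested genes. The 7 smooth muscle markers summed to 139 to 272 FPKM in D150L150 and 216 to 344 in Control, and 0 passed. Of the fibroblast, adipocyte, endothelial, macrophage, neutrophil and cardiac markers 0 passed in limma, with 3 of 5 endothelial and 2 of 5 cardiac markers at an unadjusted p under 0.05, against 20.4% of tested genes. Medians were 0.17 over 6 fibroblast markers and -0.83 over 5 endothelial markers. No marker of these lists was at 0 in all libraries of a group, and their part in the muscle gene values was not tested.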

How the data were processed

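The 18 libraries are from mouse skin flaps taken at day 7. The labels' protocols name TRIzol for RNA extraction and a VAHTS Universal V6 kit for library construction. The authors deposited 1 table of FPKM values for 27743 genes, scaled to each library's own total. Among tools, the submitters' processing notes list DESeq2, fastp, HTSeq, HISAT2 and R 3.2.0, and mm10 as the build, without role or order. Annotation and use of strand: not given in the sources used here.

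Groups and replicate numbers came from the sample titles. In all 27743 genes the FPKM values fitted whole multiples of a step (tolerance 1e-07), taken as 1 fragment, which gave the fragments per library. Genes at 0 throughout, or above 0 in 1 library only, fit by construction. The step is the largest that fits, so fragments that share a factor would be understated. Values were transformed to log2(FPKM + 1), which understates differences of low genes. A gene was tested if 3 or more libraries reached an FPKM of 1, which kept 13078 genes, all 35 described here among them, and removed 14665. The linear model in limma 3.58.1 (R 4.3.3) had a mean for each group over the 18 libraries, with trend and robust moderation. Benjamini-Hochberg adjustment ran over all tested genes in each comparison. The fit was tested on simulated data. Same-numbered libraries were not treated as pairs. Of 45 such pairs 18 had a correlation of their deviations above 0.1. The median correlation was 0.020, against 0.022 for pairs with different numbers.

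Values in every library are given for the gene of highest mean in each role, all fast and slow partners and all called genes. From the other lists the text names called genes, or the 2 with the smallest p in D150L150 against Control. The 35 genes, the lists and the tests were chosen with earlier results of these data known. Alternatives were a pseudocount of 0.1, no filter, 4 other scalings, the replicate block, a fit of only the groups compared and leaving out each library, and voom (chosen after seeing the data).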

Additional observations from a re-analysis of the deposited data

Results flagged for a closer look

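For 2 of the 35 genes, every D150L150 library lay on one side of the Control mean and every D15L100 library on the other. That is 5.71% of the 35, against 1.64% of all 13078 tested genes. Over all 10 pairs of spacer groups these were the only 2 of the 35, again 5.71%, against 7.31% of tested genes with such a split in at least 1 pair, so the share over all pairs is near that of all genes. Myh1, of type 2X myosin, had a D150L150 effect that was lower than its D15L100 effect by a difference of -2.01 on the log2(FPKM + 1) scale. For Xirp2, a Xin-repeat gene of the Z-disc region, that difference was -2.40. In both genes D150L150 lay below the Control mean and D15L100 above it, and the difference between these effects was not tested. Both comparisons share the 3 Control libraries.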

How the results depend on the processing

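No called gene changed sign under any alternative. In D150L150 against Control, where 2 genes were called, 0 were called with the replicate block, 0 without the filter, 0 by voom on recovered fragments and 1, Sgca, with only the groups compared in the fit. Leaving out 1 library gave 0 to 5 calls in D150L150 and in D100L150, 0 to 2 for the mean of the spacer groups, and 0 in the comparisons of D15L100, D15L150 and D15L200 with Control and in the 6 spacer pairs. The adjusted p of Coro6 ranged from 0.0156 to 0.188 over all alternatives, that of Sgca from 0.0206 to 0.194 and that of Des from 0.0371 to 0.256. The 4 other scalings and the pseudocount of 0.1 kept both calls. With 1 library left out, the slow minus fast difference ranged from -1.24 to 0.25 in D15L100, from -1.70 to -0.75 in D15L200, from -1.26 to -0.27 in D100L150, from -1.10 to -0.15 in D150L150 and from -1.50 to -0.55 for the spacer mean, and in D100L150 it was -1.93 by voom. The spread of the 35 genes was 10.5 times that of all genes with no filter, against 5.68 times with it, since the unfiltered table adds genes near 0. The widest group's fold of summed FPKM ranged from 4.33 to 6.47. When 1 library was left out, the median over the 35 genes ranged from -0.25 to 0.63 in D15L100, from -0.64 to 0.38 in D15L150, from -1.40 to -0.42 in D15L200, from -2.28 to -0.82 in D100L150, from -2.12 to -1.59 in D150L150 and from -1.14 to -0.55 for the spacer mean. It was -0.42 in D15L200 without D15L200 3 and -0.59 without Control 2, -0.82 in D100L150 without D100L150 1 and -2.28 without D100L150 3, and -0.55 for the spacer mean without Control 2; it turned positive in D15L150 without D15L150 3 or Control 2, and negative in D15L100 without D15L100 3, Control 1 or Control 3. Same-numbered libraries correlated in their deviations between -0.657 and 0.530, with a median of 0.020 and of 0.022 for other pairs. The cause of each change was not tested. Values of Myh7, Myl2 and Myl3 are imprecise in the libraries where they had few fragments.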
